A study of Mus musculus with 26 samples.

Results

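Deletion of Brg1 in cultured mouse pro-B cells was followed by RNA-seq, and the response is described here across 10657 of the 19404 genes that the authors' table lists. A gene was taken when the larger of its 2 group means was at least 50 normalized reads, a normalized read being a read divided by the size factor of its library. For each of these genes the difference between the groups was taken as log2((Brg1-deleted mean + 1)/(control mean + 1)), so that a value of 1 is a doubling. The groups are 2 control libraries of genotype Brg1+/+ x ER-Cre and 2 Brg1-deleted libraries of genotype Brg1F/F x ER-Cre, both of strain C57/Bl6. Cells of both groups were B220+ bone marrow cells grown for 7 days with the cytokines IL7 and SCF, and both groups carried ER-Cre, a recombinase that tamoxifen switches on, and received 0.3 µM tamoxifen for the final 60 hours. The controls therefore share the recombinase and the drug, and differ by having no floxed allele to lose. The age and number of the mice are not given in the sources used here. A second experiment used Rag1-/- pro-B cells infected with a retrovirus for Ctrl-sh or for Brg1-sh (3 libraries of each). Its cells were grown for 7 days and infected on days 3 and 4, so treatment and timing differ from the deletion. The knockdown shares no library with the deletion and is set beside it only for the same genes.

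Brg1, encoded by Smarca4, is the ATPase of SWI/SNF complexes, which use ATP to slide or evict nucleosomes and so open enhancers and promoters to transcription factors. Pro-B cells are B lineage precursors that are rearranging their heavy chain genes. They grow under IL-7 receptor signalling, and in culture they divide fast and make ribosomes and metabolic enzymes at a high rate.

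The authors deposited 1 mean per group, but these means could be split into whole reads per library for 9836 of the 10657 genes, 92.3%. The libraries held about 10765427 and 10215513 reads in controls against 11590544 and 8781776 in the Brg1-deleted group, and they are called here the deeper and the shallower library of each group. Of the resolved genes, 6.56% differed over 2-fold between the 2 control libraries, 9.11% between the 2 Brg1-deleted libraries and 11.7% between the group means. The groups did not overlap in 58.1% of the resolved genes, so separation of the 4 values is common and is given below as a description only. Whether each library came from a mouse of its own is not given in the sources used here, and p-values cover the spread between these libraries, possibly a technical one. In the count of members, Magohb and Gca, at larger means of 50.1 and 50.01, were the genes just inside the level of 50, and Fam161b and Ptpdc1, at 49.96 and 49.94, the genes just outside it.

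Smarca4 itself fell, from an authors' mean of 17898 to 6067, which is 2.95-fold (adjusted p 0.0008) in the authors' deposited table. The remaining level includes any reads from exons outside the deleted part of the gene. None of the 20 other SWI/SNF subunit genes at this level was called, and their median log2 was 0.12, with 14 above 0 and 6 below. Those with the smallest unadjusted p were Bcl7a (authors' means 5652 and 9045) and Arid1a, a DNA-binding subunit (6844 and 10637), for which the authors' deposited table has adjusted p of 0.5468 and 0.6301. Among 20 other chromatin remodeller genes the one called was Hells, a helicase linked to DNA methylation, with adjusted p 0.0482 in the authors' deposited table. Hells fell from 1753 and 1629 normalized reads in the controls to 609 and 933 in the Brg1-deleted libraries.

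At an adjusted p under 0.05 in the authors' deposited table, 278 of the 10657 genes were called, 2.61%. Of these, 137 (1.29%) were higher after deletion and 141 (1.32%) lower. The table as a whole holds 286 calls among its 19404 genes, 1.47%, so the level of 50 leaves out 8 of them. The bulk of the genes moved little, with a median log2 of -0.01, quartiles at -0.39 and 0.36, and the outer 5% on each side beginning at -1.06 and 1.09. Over 2-fold apart were 1254 genes, 11.8%, with 638 higher and 616 lower, and 976 of them were not called. Every called gene was among the 1254, the smallest called change having a log2 size of 1.13. All 243 called genes that could be resolved kept their direction when any 1 of the 4 libraries was left out. The calls rest on the same libraries, so this is no independent check.

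On the recovered reads, limma called 0 of 17005 genes at an adjusted p under 0.05, while 2884 had an unadjusted p under 0.05. Without the shallower control library it called 46 genes, 39 higher and 7 lower, in a fit that takes the spread of the lone control from the other group.

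**Figure D1:**
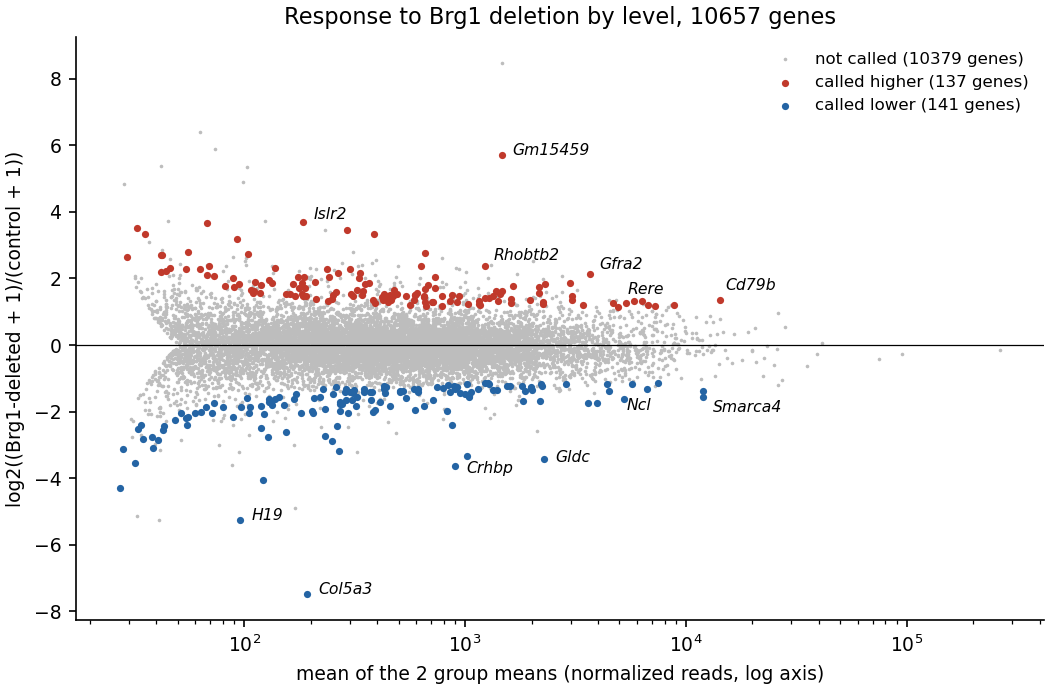
Log2 difference between the Brg1-deleted and the control mean (y axis) against the mean of both groups in normalized reads (x axis, log scale), 1 point per gene. The 137 called rises and 141 called falls lie along the whole range of levels, and the quartiles of the 10657 genes are at -0.39 and 0.36.

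By level, the share of called genes was similar over the range that holds most genes. It was 3.11% of 1449 genes with a mean of both groups from 25 to 100, 2.73% of 2675 from 100 to 300, 2.25% of 4002 from 300 to 1000 and 2.46% of 1913 from 1000 to 3000. Above that it was 3.59% of 557 genes from 3000 to 10000 and 4.92% of 61 at 10000 and above, the last resting on 3 calls. The median log2 went from 0.01 in the lowest of these ranges to -0.10 and -0.14 in the uppermost 2. The spread was widest among low genes, where the median size of the log2 difference was 0.56 between groups, 0.45 between the 2 controls and 0.47 between the 2 Brg1-deleted libraries. From 300 to 1000 these 3 sizes were 0.33, 0.24 and 0.24. Of the 719 genes that reached 50 in 1 group only, 58 were called, 8.07%, against 220 of 9938, 2.21%, that reached it in both. A gene that passed through its high group alone had to differ, so that first share describes the rule and not the cells.

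Divided by exon length, the levels gave a similar picture. From the lowest to the highest quartile of normalized reads per kilobase the called shares were 3.08%, 1.80%, 1.99% and 3.57%, and the medians 0.09, 0.02, -0.02 and -0.12.

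The most abundant called genes show what these levels hold. After Smarca4, the called falls of highest level were Ncl, which encodes the nucleolar protein nucleolin, Npm1, which encodes the nucleolar protein nucleophosmin, Eif5a, a translation factor gene, and Hmgn2, a nucleosome-binding protein gene. In the authors' deposited table Ncl went from 17309 to 6580 (adjusted p 0.0056), Npm1 from 10263 to 4607 (0.0365), Eif5a from 9500 to 3812 (0.0113) and Hmgn2 from 7849 to 3512 (0.0382). All of these are too abundant to be split by library. The called rises of highest level were Cd79b, which encodes part of the B cell receptor, Rere, a transcriptional corepressor gene, Snx5, a sorting nexin of endosomes, Dgkd, a diacylglycerol kinase gene, and Siglecg, a sialic acid receptor of B cells that dampens their signalling. In the authors' deposited table Cd79b went from 8045 to 20542 (adjusted p 0.0106), Rere from 5355 to 12222 (0.0283), Snx5 from 4477 to 10073 (0.0361), Dgkd from 4047 to 9369 (0.0303) and Siglecg from 3571 to 9009 (0.0092). Siglecg stood at 3425 and 3716 in the control libraries. The changes of these abundant genes were small among the calls, the largest after Smarca4 being the 2.63-fold fall of Ncl in the authors' deposited table.

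The sequences upstream of the start sites of 4 called genes are shown so that the letters counted below can be seen, 3 of them from the abundant calls above and Mcoln1 from the lysosomal genes described further on. They are the 150 bases before the RefSeq start (GRCm38.p6), with CACGTG, the E-box read by Myc-type and TFE-type factors, and GGGCGG, the GC box, in capitals on either strand. Hmgn2 (fall) is at chr4:133967992-133968141 on the minus strand, Snx5 (rise) at chr2:144270573-144270722 on the minus strand, Dgkd (rise) at chr1:87853137-87853286 on the plus strand and Mcoln1 (rise) at chr8:3500369-3500518 on the plus strand.
Hmgn2: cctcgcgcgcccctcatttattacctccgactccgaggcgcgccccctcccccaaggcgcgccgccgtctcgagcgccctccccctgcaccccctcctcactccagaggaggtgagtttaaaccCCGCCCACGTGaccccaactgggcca
Snx5: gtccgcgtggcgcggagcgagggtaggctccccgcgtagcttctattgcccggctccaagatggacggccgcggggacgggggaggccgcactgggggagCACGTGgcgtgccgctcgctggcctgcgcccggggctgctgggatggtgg
Dgkd: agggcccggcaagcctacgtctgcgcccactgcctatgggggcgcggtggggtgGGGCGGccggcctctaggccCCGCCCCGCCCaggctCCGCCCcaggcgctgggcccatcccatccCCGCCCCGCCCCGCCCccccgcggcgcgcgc
Mcoln1: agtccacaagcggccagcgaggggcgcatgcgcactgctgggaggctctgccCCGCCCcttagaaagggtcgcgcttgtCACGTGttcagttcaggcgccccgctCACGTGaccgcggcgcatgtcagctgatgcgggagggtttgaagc

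In Hmgn2 the GC box and the E-box overlap by 1 base. The Mcoln1 stretch holds 2 E-boxes and the Dgkd stretch 7 GC boxes, some of which overlap. The like stretches of the abundant calls Smarca4 and Rere, not printed, hold no E-box. Smarca4 has 1 GC box and Rere none. The printed stretches therefore do not stand for the called genes. Over RefSeq windows of 300 bases, 250 before to 50 after the start, 8343 of the 10657 genes could be matched by symbol or synonym. CACGTG was in 12.3% of the matched genes, in 18 of 107 called rises (16.8%) and in 15 of 114 called falls (13.2%), against 8.09% of all 27025 genes with a window. GGGCGG, searched on both strands, was in 70.5% of the matched genes, 70.1% of the called rises and 70.2% of the called falls, against 38.2% of all genes with a window. TATAAA was in 8.15%, 11.2% and 8.77% in the same order, and CCAAT in 43.8%, 43.0% and 39.5%, both on either strand. Called rises and called falls thus lay near the matched genes as a whole for each of these letters, and no test was made.

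Beyond the 10 largest rises, the called rises ranked 11 to 25 by log2 had log2 values from 2.03 to 2.37. Predicted genes, clone names and antigen receptor segments were left out of the ranks. Pfn2, which encodes the actin-binding protein profilin 2, went from 24.4 and 19.01 in the controls to 105 and 128 after deletion. Rhobtb2, which encodes a protein with BTB domains, went from 490 and 306 to 1712 and 2407. Bcl6, a transcriptional repressor of the B lineage, went from 57.5 and 145 to 556 and 447. In each of these 3 genes both Brg1-deleted libraries lay above both controls, and the 2 controls were furthest apart for Bcl6. The groups were likewise separate in all 243 called genes that could be resolved. Rasgrp3, which encodes an activator of Ras in B cells, went from 86.8 and 155 to 516 and 580, and Plk2, a stress-responsive polo-like kinase gene, from 80.9 and 112 to 508 and 360. Gfra2, a receptor gene of the GDNF family, had 967 and 1749 in controls, and its authors' mean after deletion was 6004. In the limma fit the log2 differences and their standard errors were 2.40 ± 0.34 for Pfn2, 2.39 ± 0.30 for Rhobtb2, 2.44 ± 0.46 for Bcl6 and 2.16 ± 0.29 for Plk2.

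The other genes of these ranks were Dnah1, an axonemal dynein gene, Rab36, a Rab GTPase gene, the adaptor gene Dok4, Tldc1, Ccdc157, Serpini1, which encodes a serine protease inhibitor, Slc2a8, a glucose transporter gene, and the pseudogenes Rpl10-ps1 and H2-K2. Their adjusted p in the authors' deposited table ranged from 2.41e-07 for Rpl10-ps1 to 0.031 for Dok4. Dnah1 went from 29.3 and 61.0 to 253 and 205, and Slc2a8 from 81.9 and 62.05 to 290 and 314. Low genes among the 10 largest rises included Dmwd, at 3.90 and 14.0 in controls against 94.2 and 159 after deletion, Tle2, a corepressor gene, at 10.7 and 10.0 against 69.1 and 77.9, and Rgs9, a regulator of G protein signalling, at 9.75 and 5.00 against 51.8 and 51.2.

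The called falls ranked 11 to 25 had log2 values from -2.89 to -2.26. Thy1, a surface glycoprotein gene of T cells and some progenitors, went from 307 and 224 to 55.3 and 29.1. Uchl1, a deubiquitinase gene, went from 431 and 377 to 78.6 and 40.7, and Igfbp4, a binding protein of insulin-like growth factors, from 1242 and 1694 to 339 and 210. Axin2, a feedback inhibitor and common target of Wnt signalling, went from 88.7 and 74.1 to 13.8 and 18.6. In these 4 genes both Brg1-deleted libraries lay below both controls by more than the libraries of either group differed. The limma log2 differences with their standard errors were -2.69 ± 0.40 for Thy1, -2.82 ± 0.37 for Uchl1, -2.44 ± 0.30 for Igfbp4 and -2.30 ± 0.38 for Axin2. Coro2b, an actin-binding coronin gene, Ccnb1ip1, a meiotic crossover gene, Egfl7, an endothelial secreted factor gene, Nlrp1b, an inflammasome sensor gene, Tmem59l and Cacnb2, a calcium channel subunit gene, were low to moderate in controls, with authors' means from 56.7 to 93.2, and had adjusted p from 0.0027 for Coro2b to 0.0338 for Tmem59l in the authors' deposited table. Ly6c2, Ms4a3, Elane, Ctsg and Prtn3 complete these ranks and are genes of myeloid progenitors.

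**Figure D2:**
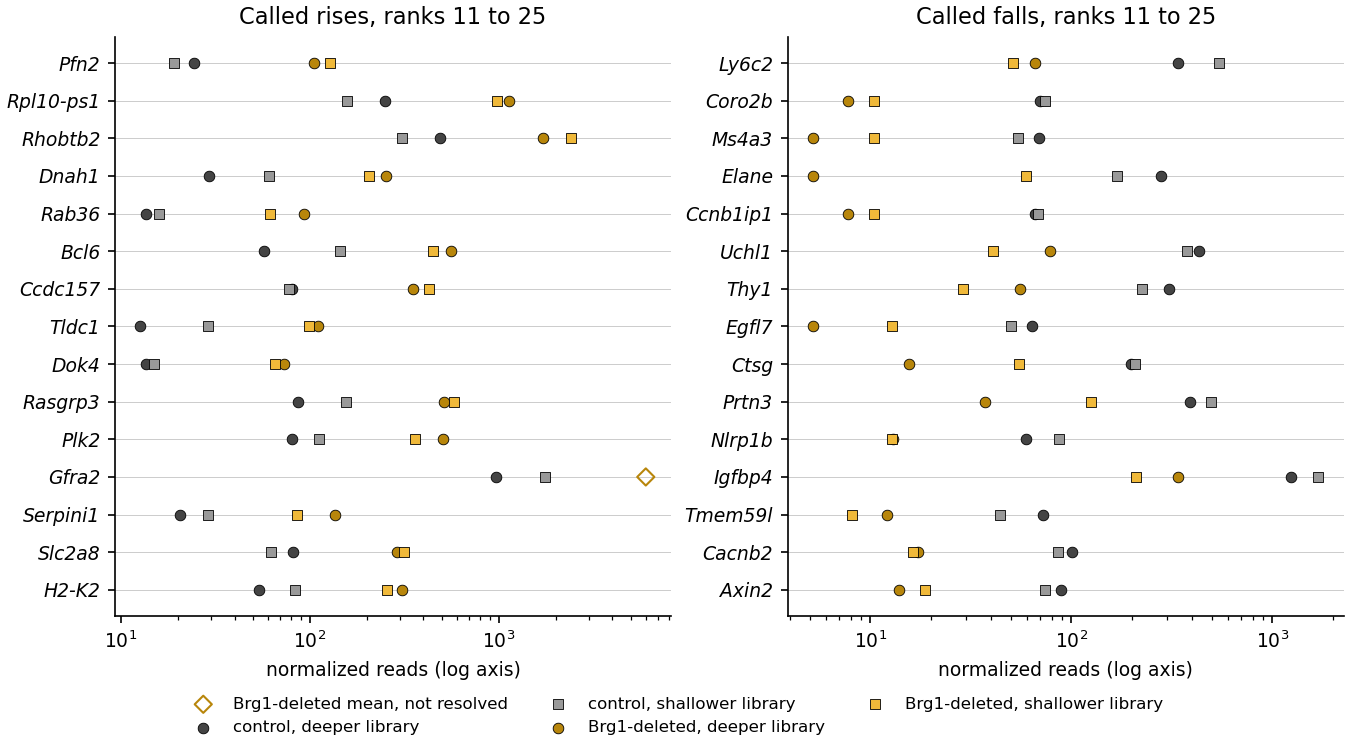
Normalized reads (x axis, log scale) of the called rises and called falls ranked 11 to 25 by log2, with 1 point per library and, for Gfra2, the authors' mean of the Brg1-deleted group. The libraries of the 2 groups do not overlap in any of the genes shown that could be resolved. The same holds for all 243 called genes that could be resolved and for 58.1% of all resolved genes, so it does not set these ranks apart.

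The myeloid progenitor genes were the marker list with the most calls. Of its 9 genes, 5 fell and 0 rose, so 55.6% were called against 2.61% of all genes. All 9 lay below 0, with a median log2 of -2.43. Prtn3, the granule protease proteinase 3, went from 390 and 495 to 37.1 and 126, and Ctsg, cathepsin G, from 197 and 207 to 15.6 and 54.7. Elane, neutrophil elastase, went from 278 and 169 to 5.18 and 59.3, Ms4a3 from 69.2 and 54.0 to 5.18 and 10.5, and Ly6c2 from 340 and 540 to 65.7 and 51.2. Mpo, myeloperoxidase, had authors' means of 2177 and 513 and was not called (adjusted p 0.1153 in the authors' deposited table). Its Brg1-deleted libraries stood at 111 and 915. The summed level of the 8 resolved genes was 1503 and 1854 in controls and 340 and 450 after deletion, so the groups did not overlap. Of all resolved genes taken singly, 58.1% did not overlap either. In bulk RNA, fewer cells of a type and less RNA per cell cannot be told apart.

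Markers of mature myeloid cells differed more within the groups than between them. Over the 12 neutrophil genes the summed level was 1136 and 347 in the deeper and shallower control and 124 and 687 in the deeper and shallower Brg1-deleted library, with 0 of 12 called. Over the 13 macrophage genes it was 3106 and 8975 against 6180 and 2365, again with 0 called. The deeper control and the shallower Brg1-deleted library thus held more neutrophil and less macrophage RNA than the other 2 libraries. The granule gene Ltf was at 0 in 1 library of each group and at 77.0 and 73.3 in the others. The T cell receptor complex genes Cd3e, Cd3d and Cd3g reached at most 13.0 in any library. Of 13 T cell markers 2 were called, both lower, Thy1 and the kinase gene Lck, at 199 and 191 against 57.0 and 68.6. Only 6 of the 13 reached the level set for the genes described here, so 33.3% of these were called, against 2.61% of all genes. The 6 did not fall as a set. Their median log2 was 0.32, with 3 above 0, each over 2-fold higher but not called, and 3 below 0, 2 of them over 2-fold lower. Xist, the RNA of the inactive X chromosome, stood at 1191 in the deeper and 8.14 in the shallower Brg1-deleted library, had authors' means of 3624 and 600 and was not called. Of the defining pro-B genes, the B lineage transcription factor gene Ebf1 was high in both groups, with authors' means of 7809 and 7690. The part of other cells in the calls was not tested, apart from leaving out each library.

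**Figure D3:**
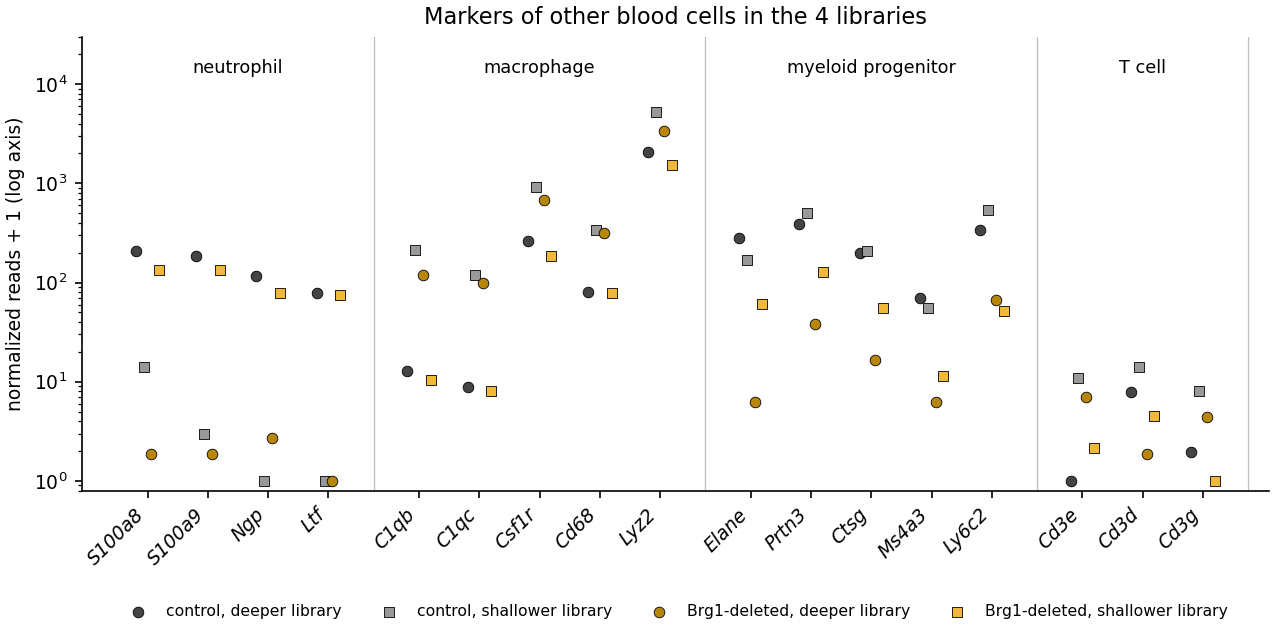
Normalized reads + 1 (y axis, log scale) of markers of other blood cells in each of the 4 libraries. Neutrophil and macrophage genes split the libraries of each group, while the myeloid progenitor genes Elane, Prtn3, Ctsg, Ms4a3 and Ly6c2 are lower in both Brg1-deleted libraries than in both controls.

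By biotype, as the authors' Source column gives it, 10122 of the genes were protein_coding, of which 125 rose and 131 fell (2.53%). Pseudogenes had the largest called share among the biotypes with at least 20 members, at 6.02% of 216 genes, with 8 higher and 5 lower and a median log2 of -0.10. Of 155 lincRNA genes 1 rose and 3 fell (2.58%), of 84 processed_transcript genes 1 rose and 2 fell (3.57%), and of 48 antisense genes 2 rose and 0 fell (4.17%). The medians of these 3 noncoding groups were 0.24, 0.24 and 0.25, above the -0.02 of protein_coding genes. Their genes were also shorter and lower, with a median level of 90.5 for lincRNA and 81.6 for antisense genes against 445 for protein_coding ones. Of the 9 other biotypes, with 32 genes in all, none held a call.

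Among the pseudogenes, Rpl10-ps1, a copy of a ribosomal protein gene, rose from 252 and 157 to 1137 and 981. Gm5559, a copy of the glycolytic gene Gapdh, fell from 420 and 437 to 93.3 and 155. H2-K2, which the table describes as a histocompatibility locus, rose from 53.6 and 83.1 to 309 and 257, and Gm5815 and Gm14253, copies of Glcci1 and Pdcd10 by their descriptions, were at 0 in the deeper control and at 53.04 and 11.01 in the shallower one, against 164 and 198, and 56.2 and 74.4, after deletion. Gm15459, named after its value was seen, had the largest called log2 of all, 5.71, at 39.0 and 69.1 against 3985 and 1769. The table lists it at the same start on chromosome 5 as the lincRNA Gm26825, on the other strand. Reads of pseudogenes can be shared with near-identical copies, so all of these values are uncertain.

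Several noncoding genes that fell host small nucleolar RNAs. Gas5, a growth-arrest transcript whose introns encode snoRNAs, fell from 1540 and 1571 to 560 and 486, and Snhg5 from 622 and 606 to 232 and 262. In both genes the libraries of a group lay close together and the groups far apart. These were the 2 calls among 15 snoRNA host genes, whose median log2 was -0.996, with 13 of 15 below 0. Dancr, another long noncoding RNA gene that fell, went from 117 and 110 to 27.6 and 38.4. The imprinted lincRNA H19 fell from 265 and 111 to 0.864 and 6.98. Called rises were the lincRNA 5031434O11Rik, from 36.1 and 46.0 to 138 and 159, the processed transcript A930024E05Rik, from 18.5 and 17.01 to 81.2 and 101, and the antisense genes Gm15860 and Gm4673, for which the strand setting of the authors' counting is not given in the sources used here.

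By function, 42 lists of genes were described, together with lists of markers. The lists hold 1470 of the genes, 47 of them called (3.2%), and 231 calls lie in no list. Among lists of at least 15 genes, those furthest below 0 were the snoRNA hosts, the chaperones and the nuclear pore genes, with 2 of 15 (13.3%), 3 of 21 (14.3%) and 0 of 40 members called, against 2.61% of all genes. Chaperone genes of the cytosolic CCT ring, the mitochondrial chaperonin and the heat shock proteins all lay below 0, 21 of 21, with a median of -0.96, 3 called falls and 0 called rises. Hspd1 and Hspe1, which encode the 2 parts of the mitochondrial chaperonin and lie side by side on chromosome 1, both fell. Hspe1 went from 1282 and 1300 to 517 and 506, and Hspd1 from an authors' mean of 6088 to 1525 and 2132 in the Brg1-deleted libraries. Cct6a, a CCT subunit gene, fell from 2418 and 2072 to 846 and 1073. In the authors' deposited table the adjusted p was 0.0020 for Hspd1, 0.0186 for Hspe1 and 0.0267 for Cct6a. The limma log2 differences were -1.33 ± 0.16 (SE) for Hspe1 and -1.23 ± 0.19 for Cct6a. Over the 7 resolved chaperone genes the median with 1 library left out ran from -1.32 to -0.69.

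Genes of several large complexes lay mostly below 0 without a call. Mitochondrial ribosomal protein genes had 73 of 76 below 0 and a median of -0.41, proteasome subunits 36 of 37 and -0.50, and spliceosomal Sm and U-particle proteins 30 of 31 and -0.51. Nuclear pore and karyopherin genes, which carry traffic between nucleus and cytoplasm, had 36 of 40 below 0 and a median of -0.61, and RNA polymerase subunits 20 of 27 and -0.37. Over all 10657 genes, 5429 were below 0 and the median was -0.01. The members with the smallest unadjusted p in these lists had adjusted p in the authors' deposited table of 0.0691 for Mrps28 (authors' means 260 and 104), 0.1934 for Psmd7 (1660 and 886), 0.1238 for Snrpd3 (722 and 345), 0.1134 for Nup43 (261 and 113) and 0.1435 for Polr3e (520 and 235). Leaving out 1 library at a time, the medians ran from -0.50 to -0.30 for the mitochondrial ribosome, from -0.63 to -0.45 for the proteasome, from -0.59 to -0.50 for the spliceosome list, from -0.77 to -0.25 for the nuclear pore list and from -0.46 to -0.23 for RNA polymerases. The nuclear pore median depended most on the library, and in none of these lists did it reach 0.

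Mitochondrial import genes had 20 of 22 below 0, a median of -0.39 and 1 called fall (4.55%, against 2.61% of all genes). That fall was Timm8a1, an intermembrane space chaperone gene, from 194 and 140 to 41.5 and 48.8. Amino acid and glucose transporters had a median of -0.58 with none of 15 called. Slc7a5, the large neutral amino acid transporter gene, had 2873 and 1366 in controls against 329 and 590 after deletion, with the controls themselves over 2-fold apart, and was not called (adjusted p 0.3271 in the authors' deposited table). Genes of the IL-7 receptor, Kit and STAT5 pathway had a median of -0.33 with none of 22 called. The median of the 17 resolved members was -0.10 with all libraries and 0.05 without the shallower control. Cish, a STAT5 target that restrains the receptor, stood at 974 and 1026 against 521 and 687 (adjusted p 0.4931 in the authors' deposited table). Histone genes had a median of -0.37 with none of 29 called. The 25 resolved ones had -0.37 with all libraries and 0.46 without the shallower control. Cholesterol synthesis genes were split, 11 above and 11 below 0, with a median of 0.03.

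On the other side, most genes of the lysosome, autophagy, FoxO and PI3K, and p53 target lists lay above 0. Each list had at most 1 call, so the called shares were 3.33%, 0%, 5% and 4.76%, against 2.61% of all genes. Lysosomal genes had 24 of 30 above 0 and a median of 0.51. Mcoln1, the calcium channel gene of the lysosomal membrane, rose from 257 and 226 to 569 and 743. Autophagy genes had 21 of 27 above 0, a median of 0.38 and no call, with Atg9a at 386 and 358 against 640 and 781 (adjusted p 0.2721 in the authors' deposited table). Genes of the FoxO factors and of the brakes on PI3K signalling had 18 of 20 above 0 and a median of 0.42. Irs2, an adaptor of insulin receptor signalling and a FoxO target, rose from 263 and 305 to 850 and 735. Genes targeted by p53 had 17 of 21 above 0 and a median of 0.42, with Plk2 as the called rise. The medians with 1 library left out stayed above 0 in these lists, from 0.18 to 0.75 for lysosomes, 0.26 to 0.45 for autophagy, 0.25 to 0.47 for FoxO and PI3K and 0.36 to 0.44 for p53 targets. In the authors' deposited table the adjusted p was 0.0164 for Mcoln1, 0.0073 for Irs2 and 0.0003 for Plk2.

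Zinc finger genes named Zfp, many of them KRAB repressors, lay above 0 in 200 of 263, with a median of 0.25. They held 1 called rise, 0.38% against 2.61% of all genes. That rise was Zfp36, which encodes an RNA-binding protein that destabilises cytokine messages and is also an immediate early gene, from 730 and 1160 to 2547 and 1998. Genes of axonemal dyneins and cilia had 19 of 23 above 0, a median of 0.40 and Dnah1 as the called rise (4.35%). NF-kB subunits and inhibitors had 18 of 20 above 0 and a median of 0.32 with no call, and Nfkb2 stood at 368 and 434 against 661 and 999 (adjusted p 0.335 in the authors' deposited table). Polycomb and trithorax genes had a median of 0.23 with none of 39 called. In the Notch list, at a median of 0.22, 1 of 17 genes was called (5.88%). It was Maml3, a coactivator gene, which rose from 568 and 424 to 1167 and 1577.

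Lists of antigen presentation and interferon response moved with single libraries. The 11 MHC class II genes all lay above 0, with a median of 0.69 and no call, but the 9 resolved ones differed by a median log2 of 2.88 between the controls and of -3.22 between the Brg1-deleted libraries, and their median was -1.49 without the deeper Brg1-deleted library. H2-DMb2 had 11.7 and 299 in controls against 721 and 31.4 after deletion. The macrophage list had a like split between libraries, and its part in these values was not tested. Type I interferon response genes had a median of 0.33 that ran from 0.00 to 1.14 with 1 library left out. In that list 1 of 27 genes was called (3.7%, against 2.61% of all genes). It was Ddx58, the RIG-I sensor of viral RNA, which rose from 311 and 366 to 887 and 677. Of 23 MHC class I and antigen loading genes, with a median of 0.17, 1 was called (4.35%). It was H2-T23, which rose from 935 and 1266 to 2973 and 2703.

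Cytoskeleton, adhesion and matrix genes changed one by one, with list medians near 0 or few members. Against 2.61% of all genes, the called shares were 8.57% for actin regulators and 16.7% for tubulins. They were 40% for collagen and matrix genes and 8% for adhesion receptors, all resting on few calls. Of 35 actin regulators 2 rose, Pfn2 and Pdlim2, the latter from 114 and 224 to 1410 and 894, and 1 fell, Pdlim1, from 700 and 771 to 335 and 221. Pdlim1 and Pdlim2 both encode PDZ and LIM domain proteins of the actin cytoskeleton, and they moved in opposite directions. Of 12 tubulin genes 2 fell, Tubb3, from 432 and 537 to 63.1 and 40.7, and Tuba4a, from 1716 and 1372 to 438 and 619. Of 10 collagen and matrix genes 1 rose, Egfl6, and 3 fell, Col5a3, Egfl7 and Lamb3, a laminin chain gene that went from 96.5 and 84.1 to 11.2 and 26.7. Among 25 adhesion receptors Icam2, an integrin ligand, rose from 341 and 472 to 1038 and 816, and Itga1, a collagen-binding integrin chain, fell from 51.7 and 51.0 to 7.78 and 2.33. Among 169 solute carriers 3 rose and 1 fell, 2.37%, which is near the 2.61% of all genes. Among 30 channel genes 2 were called (6.67%). Scn4a, a sodium channel gene of muscle, rose from 337 and 261 to 921 and 1183, while Cacnb2 fell from 100 and 86.1 to 17.3 and 16.3. Among 28 receptors named Gpr or Adgr 1 was called (3.57%). It was the lipid-sensing receptor gene Gpr132, which fell from 253 and 178 to 75.2 and 69.8.

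**Figure D4:**
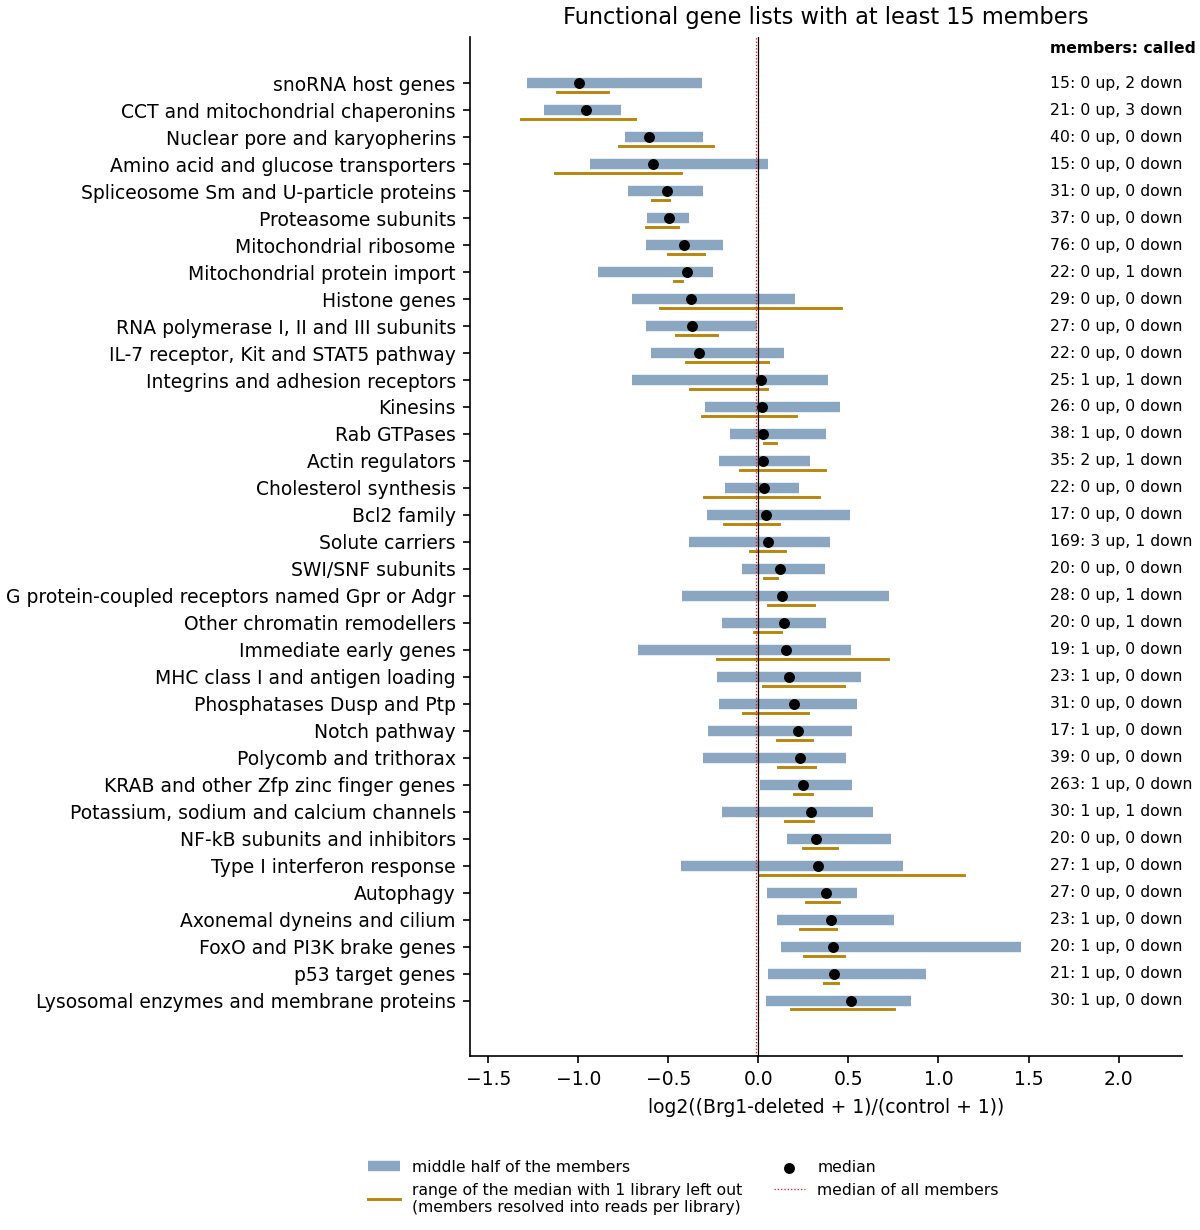
Median log2 difference (points) and interquartile range (thick bars) of functional lists with at least 15 members, 1 list left out, with the range of the median when 1 library is left out (thin lines, resolved members) and the number of called members at the right. Lists of chaperones, snoRNA hosts, nuclear pores, proteasome and mitochondrial ribosome lie left of 0 and those of lysosomes, p53 targets, FoxO and autophagy right of 0, each with 0 to 3 called members.

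Exon length, which the table gives per gene, differed between called rises and called falls. The median exon length was 2642 bases for called falls, 3693 for called rises and 3745 for all 10657 genes. Called rises made up about the same share of every length quartile, from the shortest to the longest 1.28%, 1.35%, 1.28% and 1.24%. Called falls went from 2.44% of genes up to 2358 bases to 1.35%, 0.751% and 0.751% in the longer quartiles. The median log2 went from -0.12 in the shortest quartile to 0.06 in the longest. Among protein_coding genes alone, the shortest quartile had 24 called rises and 57 called falls among 2337 genes and the longest 33 and 20 among 2621. In the top quartile of level, 5.48% of the shortest and 1.29% of the longest genes were called, but in the lowest quartile of level the shares were 2.94% and 4.69%, so the relation did not hold at every level. Of the lists below 0, those of the mitochondrial ribosome (median exon length 1700.5), snoRNA hosts (1626) and the proteasome (2300) hold short genes, while the nuclear pore list (5744.5) holds long ones. No test of length was made.

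**Figure D5:**
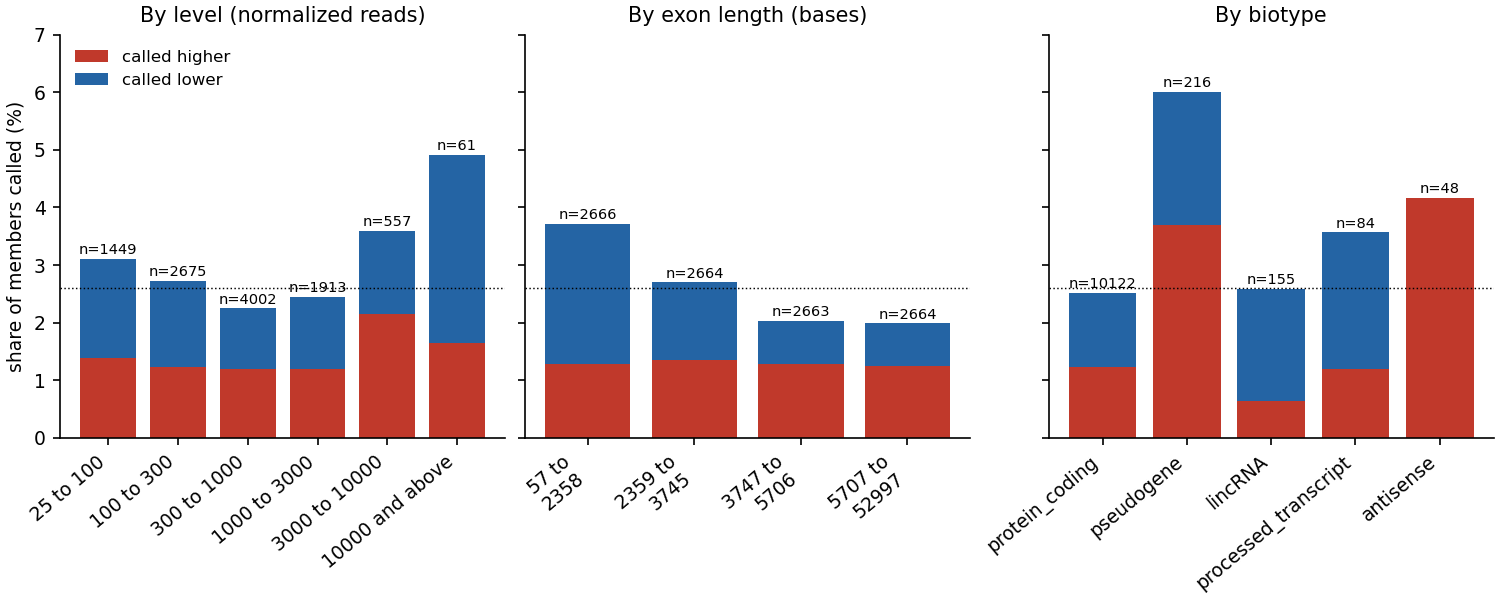
Share of genes called higher (red) and called lower (blue) by level, by quartile of exon length and by biotype, in percent of the genes of each class, with the number of genes above each bar and the share over all 10657 genes, 2.61%, as a dotted line. The share called lower goes from 2.44% in the shortest to 0.751% in the longest exon length quartile, while the share called higher stays between 1.24% and 1.35%.

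By position, the neighbourhood of Smarca4 on chromosome 9 was looked at because a floxed allele carries its flanking DNA with it through breeding. Within 5 Mb of Smarca4, 3 of 65 genes were called, 4.62%, all lower, and without Smarca4 itself 2 of 64. No further call was found out to 10 Mb (3 of 94, 3.19%) or 20 Mb (3 of 139, 2.16%). The 2 neighbours were AB124611, 0.0708 Mb away (mm10 chromosome 9, 21526176 to 21545333), at 383 and 491 in controls against 198 and 79.1 after deletion, and Col5a3, a collagen gene 0.801 Mb away (chromosome 9, 20770050 to 20815067). Col5a3 had 458 and 322 reads in controls against 0 and 2 reads after deletion. After Brg1 knockdown, where no floxed allele is present, the log2 was -0.43 for Col5a3 and -0.22 for AB124611, neither called. Whether the 2 differ through Brg1 or through the flanking DNA cannot be told apart. Across chromosomes, calls were spread widely. Over the autosomes and X the called share ran from 1.33% on chromosome 12 to 3.79% on chromosome 5, around the 2.61% of all genes.

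Set beside the knockdown, most of the called genes lay on the same side of 0. Of the 10657 genes, 10645 are in the knockdown table, where 40 were called, 0.376%. Among the 10036 genes that reach the same level in that table itself, 39 were called, 0.389%. Of the 136 called rises listed there 134 had a log2 above 0, with a median of 0.79, and of the 141 called falls 135 had one below 0, with a median of -0.56. Over all 10645 genes the median was -0.01. Across genes, which are not independent replicates, the log2 values of the 2 experiments had a Pearson correlation of 0.70 and a Spearman correlation of 0.76. Called in both were 8 genes, 5 higher and 3 lower, which is 2.88% of the deletion calls and 20% of the knockdown calls among these genes. They were Pdlim2, Pfn2, Tldc1, Gfra2 and Pear1 among the rises and Crhbp, Gm5537 and Smarca4 among the falls. Pear1, a platelet receptor gene, rose 2.81-fold on deletion and 3.00-fold on knockdown in the authors' deposited tables, with adjusted p of 0.0329 and 0.0134. The 2 tables were normalized separately, and the difference between deletion and knockdown was not tested.

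Of the 42 functional lists, 37 had a knockdown median on the same side of 0 as in the deletion, and in 34 it was smaller in size. Among the 8 where it was not, histone genes had -0.40 and immediate early genes 0.18. The knockdown medians of lists described above were -0.38 for chaperones, -0.31 for snoRNA hosts, -0.23 for the proteasome, -0.21 for the mitochondrial ribosome and -0.19 for nuclear pores, and 0.43 for lysosomes, 0.35 for FoxO and PI3K, 0.32 for p53 targets and 0.16 for autophagy. The myeloid progenitor genes had a median of 0.04, with authors' means for Prtn3 of 11.6 with Ctrl-sh and 11.9 with Brg1-sh. Several of these genes were near the floor there. With Ctrl-sh, Ctsg was at 4.01, Elane at 9.22 and Ms4a3 at 3.41, against 202, 224 and 61.6 in the deletion controls. A fall of these genes could thus hardly be seen in the knockdown, and the 2 experiments cannot be compared for them. Cilium genes had a knockdown median of -0.07. The 8 called genes on opposite sides of 0 were Rpl10-ps1 and Gm15459, both called rises with a knockdown log2 of -1.22 and -2.02, and 6 called falls, Prtn3, Ctsg, Itga1, H19, Lck and Hp, with knockdown values from 0.04 to 0.67. None of these 8 was called in the knockdown. Itga1, Hp, Ctsg and Prtn3 were near the floor there, with Ctrl-sh means of 1.19, 3.41, 4.01 and 11.6, so their sign says little.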

How the data were processed

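Polyadenylated RNA of 2 control and 2 Brg1-deleted libraries was made into dUTP-marked cDNA, per the labels' protocols. CASAVA, RSEM and DESeq are named in the submitters' processing notes, with no versions and with the mm10 build. The authors deposited 1 mean per group as a signal in normalized reads, with a log2 fold change, a signed fold ratio, a p-value and a Benjamini-Hochberg adjusted p-value, per the file headers. Groups follow the sample titles. Each mean equals whole reads of 2 libraries times 2 fixed steps. All 19404 genes had such a solution within a tolerance of 6.0e-05, and 18583 (95.8%) exactly 1, which was used. The total reads per library limit low genes most.

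Calls are the authors' adjusted p under 0.05. limma 3.58.1 in R 4.3.3, fitted with a trend in the variance to log2((reads + 0.5)/size factor), was an alternative for resolved genes whose mean reached 1. It and the read recovery were run on simulated data. The simulation gave every gene the same spread beyond that of read counting. It therefore cannot show which changes limma could detect in these libraries. A pseudocount of 1 was used in all log2 values. Other steps used Python 3.11.15 with pandas 2.3.3 and numpy 2.4.6, and figures matplotlib 3.10.9. Promoter sequences are RefSeq's (GRCm38.p6).

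Genes named are Smarca4, called ranks 11 to 25 each way, the 5 highest-level calls each way, up to 5 calls per noncoding biotype and 4 per list by adjusted p (2 uncalled genes where a list had none), calls within 5 Mb of Smarca4, and the genes beside the level of 50. Exceptions are stated, and 1 list and 1 marker gene are not reported here. The members and lists were chosen with earlier results of these data known. The authors mark 9145 genes as confounded without a definition in the sources used here, and 7160 of the 7162 genes that overlap another listed gene carry the mark.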

Additional observations from a re-analysis of the deposited data

How the results depend on the processing

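The deposited calls cannot be recomputed without a library, because the authors' test is not stored. The count of 278 calls (137 higher, 141 lower) was 152 (82 and 70) at a level of 500, 159 (76 and 83) without the genes marked as confounded, which both test fewer genes, and 419 with 217 lower when the authors' p-values were adjusted over the 10657 genes alone, also over fewer genes. All other filters gave counts within 1.5 times, and 47.8% to 53.9% of calls were higher under every filter. The median log2 of members from 100 to 300 normalized reads was 0.069 with totals scaled equal and 0.048 when centred, against 0.03, and with equal totals that of antisense genes was 0.29 and of processed transcripts 0.28. The cause was not tested. Leaving out 1 library at a time, medians ran from -0.093 to 0.12 for levels of 25 to 100, from -0.014 to 0.057 for 100 to 300, from -0.41 to -0.22 for 3000 to 10000 (57 of 557 genes resolved), from 0.24 to 0.45 for antisense, from 0.16 to 0.31 for lincRNA, from 0.19 to 0.33 for processed transcripts and from -0.22 to -0.012 for pseudogenes. The limma count ran from 0 to 46 (0 to 39 higher, 0 to 7 lower), with 46 without the shallower control. Within 5 to 20 Mb of Smarca4, 2 genes were called without Smarca4. Of 31 lists with a median log2 of at least 0.3 in size, 24 kept their sign under every alternative, and of the 149 named genes no called gene changed sign. No paired analysis was possible because the deposited columns are group means and the recovered libraries carry no replicate number. Abundant genes could mostly not be resolved, so library checks leave them out.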

Other observations

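The words of the authors' gene descriptions, a grouping chosen after the values were seen, give a further view of the response. Of 118 words held by at least 40 of the genes, medians among the lowest were those of proteasome (-0.51, 46 genes, 0 called), synthetase (-0.49, 85 genes, 2 called lower), translation (-0.48, 70 genes, 2 called lower) and ribonucleoprotein (-0.47, 65 genes, 2 called lower). Genes described as mitochondrial had a median log2 of -0.36, with 201 of 249 below 0, 0 called higher and 2 called lower (0.803%). Those described as synthase had 5 called lower and 0 called higher among 91, 5.49% against 2.61% of all genes. On the other side, genes with the word finger had a median of 0.22, with 411 of 588 above 0. Of these genes 3 were called higher and 0 lower, 0.51%, below the 2.61% of all genes. Those with F-box had a median of 0.30, with 36 of 48 above 0 and 2 called higher (4.17%). Kinase genes had 10 called higher and 4 called lower among 443 (3.16%, near the 2.61% of all genes), with a median of 0.12, and genes described with a repeat 10 called higher and 2 called lower among 271 (4.43%), with a median of 0.10. In the knockdown the medians of these words lay on the same side of 0, at -0.23 for proteasome, -0.20 for mitochondrial and 0.12 for finger. A gene can hold several words, the words overlap with the lists of function, and no test was made.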
